A study of Mus musculus with 12 samples.

Results

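The genes of the voltage-gated sodium and calcium channels were followed in the whole-brain transcriptome of mice that lack 1 or both copies of Slc6a20a, which encodes a proline and glycine transporter. Members were the genes whose symbols name a pore subunit of a sodium channel (such as Scn2a) or calcium channel (such as Cacna1a) or an auxiliary subunit (a sodium channel beta, alpha2delta or Cav beta subunit). The Cacng genes did not count as members. These were 31 of the 19775 genes in the table, 19 for pores and 12 for auxiliary subunits, and a further gene of this kind, Scn4a, was not analysed here.

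Whole brains came from male C57BL/6N mice at about postnatal day 120, 4 of them wild type (WT), 4 heterozygous (HT, Slc6a20a+/-) and 4 homozygous (HM, Slc6a20a-/-) for the deletion. Per the study's methods, the mutant allele lacks exon 3 of Slc6a20a in the whole animal, and the mice came from crosses between heterozygotes. Each animal gave 1 library of paired reads of 100 bases. Levels are given as normalized counts, that is, estimated reads per gene after scaling between mice, and they summed to between 33284951 and 33748623 per mouse. Slc6a20a itself (chromosome 9, 123634770 to 123678885) had 584 to 750 normalized counts in WT mice, 310 to 372 in HT mice and 55.6 to 76.5 in HM mice, so every library matched its genotype.

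Voltage-gated sodium channels open when the membrane depolarises and carry the fast inward current of the action potential, while voltage-gated calcium channels turn the same voltage change into calcium entry, which triggers transmitter release, dendritic signals and gene regulation. A pore subunit carries the voltage sensors, the gate and the ion path. Sodium channel beta subunits are cell adhesion molecules that adjust gating and surface number, Cav beta subunits bind the intracellular side of the calcium pore and bring it to the membrane, and alpha2delta subunits sit outside the cell and raise the number of channels at the surface and at terminals. Several of these genes are known for inherited epilepsies, ataxias, migraine and heart rhythm disorders.

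Genotypes were compared gene by gene on log2(normalized count + 1) with limma, two-sided, over all genes with a mean of at least 10 in the 8 mice compared, with Benjamini-Hochberg (BH) adjustment over all of these genes. HT against WT and HM against WT share the same 4 WT mice, so their values stand side by side without a count of what they have in common.

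1 library stood apart before any comparison. WT replicate 1 was the lowest of the 12 mice in 13 of the 23 channel genes that averaged 1000 or more normalized counts. Across all genes tested, its log2 values deviated from the mean of the 12 mice by a median of -0.15 for genes with transcripts over 8000 bases and by 0.096 for those of up to 2000 bases. In the other 11 mice these medians lay between -0.028 and 0.040 for the long genes and between -0.025 and 0.027 for the short ones. Channel genes are long, with a median longest coding transcript of 7681 bases against 2973 for all genes, so results are also given without this mouse.

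**Figure D1:**
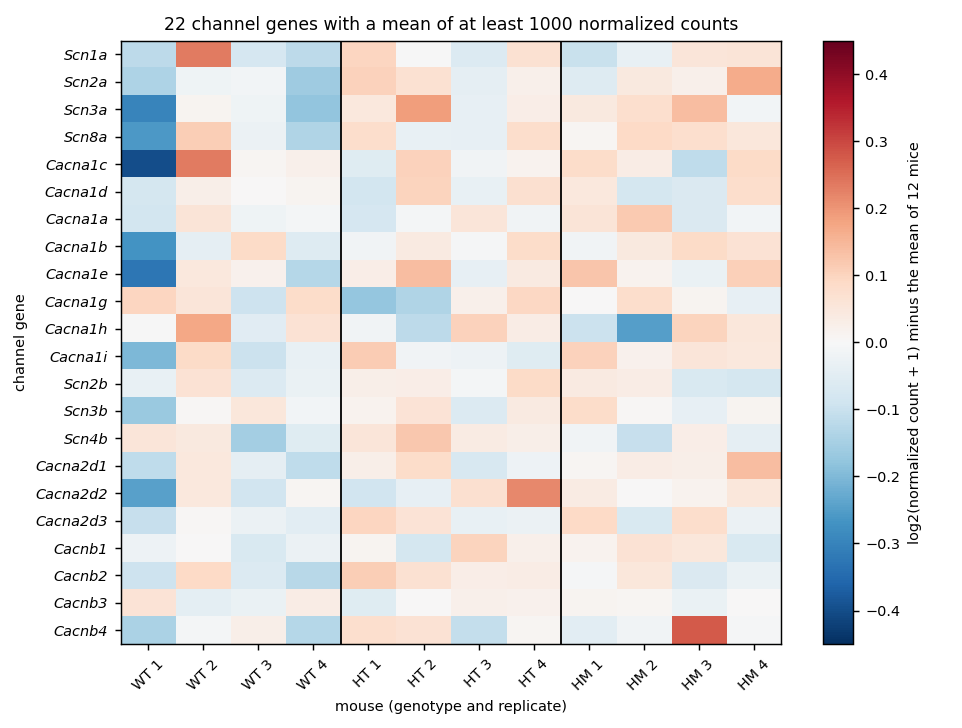
Each cell is the log2(normalized count + 1) of a channel gene (row) in a mouse (column) minus the mean of that gene over the 12 mice, for 22 members that averaged 1000 or more, with black lines between genotypes. WT 1 is blue for most genes and has the lowest value of the 12 in 13 of them, while Scn4b, Cacna1g and Cacnb3 are above their means there.

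Several members lie side by side in the genome (GENCODE M21, GRCm38). On chromosome 2, Scn3a (65457118 to 65567627, minus strand), Scn2a (65620771 to 65767447, plus strand), Scn1a (66270778 to 66440840, minus), Scn9a (66480080 to 66634962, minus) and Scn7a (66673425 to 66784914, minus) form one cluster. Scn3a and Scn2a point away from each other with 53.1 kb between them. Scn10a and Scn11a lie 34.4 kb apart on chromosome 9, at 3.92 and 3.81 Mb from the deleted Slc6a20a. Scn2b and Scn4b are 8.32 kb apart on chromosome 9, and Cacna1c and Cacna2d4 point away from each other with 40.1 kb between them on chromosome 6. Channel genes had a median span of 114 kb against 20.5 kb for all genes.

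Promoter windows from RefSeq (GRCm38.p6, 300 bases around a gene's start, most of them upstream) were found for 23 of the 31 members, with 33 windows in all. The 4 below belong to abundant members whose comparisons with WT are described in full further on, and they show how far the start regions differ in composition. Capitals mark the TATA box TATAAA and the GC box GGGCGG, searched on both strands (TTTATA and CCGCCC on the other one). The 2 motifs have no letter in common and cannot overlap. GC boxes can follow each other without a gap or share letters, and each box is counted.
Scn2a, upstream start, chr2:65620519-65620818, plus strand: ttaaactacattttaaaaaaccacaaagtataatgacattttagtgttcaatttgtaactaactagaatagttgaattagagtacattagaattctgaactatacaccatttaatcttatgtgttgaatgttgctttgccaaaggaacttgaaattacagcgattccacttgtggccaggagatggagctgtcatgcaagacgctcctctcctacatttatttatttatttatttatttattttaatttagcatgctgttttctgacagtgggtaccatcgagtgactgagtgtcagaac
Scn2a, downstream start, chr2:65668436-65668735, plus strand: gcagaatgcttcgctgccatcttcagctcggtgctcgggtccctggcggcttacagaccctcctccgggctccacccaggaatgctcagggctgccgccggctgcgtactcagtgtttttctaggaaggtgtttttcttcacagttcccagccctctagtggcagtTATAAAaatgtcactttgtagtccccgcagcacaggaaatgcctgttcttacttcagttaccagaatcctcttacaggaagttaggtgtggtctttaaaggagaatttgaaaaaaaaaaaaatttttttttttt
Cacna2d1, chr5:15934441-15934740, plus strand: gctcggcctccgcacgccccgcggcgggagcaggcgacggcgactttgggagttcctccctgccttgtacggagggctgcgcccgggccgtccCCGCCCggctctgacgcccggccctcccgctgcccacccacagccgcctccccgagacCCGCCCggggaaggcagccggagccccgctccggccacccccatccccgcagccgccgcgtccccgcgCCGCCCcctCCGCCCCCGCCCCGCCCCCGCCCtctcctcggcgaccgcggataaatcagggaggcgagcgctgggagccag
Cacna1i, chr15:80286988-80287287, plus strand: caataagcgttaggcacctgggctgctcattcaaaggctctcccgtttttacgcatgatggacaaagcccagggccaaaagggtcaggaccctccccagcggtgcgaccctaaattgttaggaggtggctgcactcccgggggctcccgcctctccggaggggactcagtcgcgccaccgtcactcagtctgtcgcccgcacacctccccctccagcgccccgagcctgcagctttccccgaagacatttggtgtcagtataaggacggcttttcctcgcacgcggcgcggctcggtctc

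The upstream Scn2a window had 33.0% G and C with 3 CpG dinucleotides and neither motif, and the downstream window, inside the annotated gene, had 47.7% and 1 TATA box. The Cacna2d1 window had 80.0% G and C, 42 CpG dinucleotides and 7 GC boxes. That of Cacna1i had 62.7% G and C and 23 CpG dinucleotides without a GC box. Over all members the median window held 59.3% G and C and 11 CpG dinucleotides, against 52.7% and 7 over 32851 mouse windows. A TATA box was in 2 of the 33 member windows and in 13.6% of all windows, and a GC box was in 14 member windows, from 13 genes, and in 35.7% of all. The cAMP response element TGACGTCA was in 0 member windows and 1.79% of all.

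Levels of different genes are compared as normalized counts per kb of the longest coding transcript, as the mean ± SD over 4 mice of each genotype. Among sodium channel pores, Scn2a, the Nav1.2 channel of excitatory neurons and their axon initial segments, stood at 1228 ± 65.5 per kb in WT mice, 1335 ± 56.7 in HT mice and 1341 ± 88.3 in HM mice. Scn8a, the Nav1.6 channel of initial segments and nodes of Ranvier, stood at 1143 ± 125, 1219 ± 56.3 and 1248 ± 30.5 per kb. Scn1a, the Nav1.1 channel of fast-spiking interneurons and the gene of Dravet syndrome, stood at 759 ± 94.7, 779 ± 38.0 and 763 ± 39.8 per kb. These 3 genes made up 35.8%, 33.2% and 22.1% of the summed per-kb level of the sodium channel pores in WT mice. Scn3a, the Nav1.3 channel best known from the embryonic brain, followed with 198 ± 19.4 per kb in WT mice, 224 ± 15.0 in HT mice and 224 ± 9.82 in HM mice.

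The other sodium channel pores are known mainly from tissues other than the brain and were much lower. Scn7a, which encodes a sodium-level sensor rather than a classical voltage-gated channel, had 24.2 ± 2.51 per kb in WT mice, 24.0 ± 1.97 in HT mice and 22.6 ± 1.40 in HM mice. Among the pain neuron channels, Scn9a had 23.0 ± 1.96, 23.4 ± 4.33 and 21.3 ± 4.32 per kb. Scn10a had 3.46 ± 1.27, 3.42 ± 1.06 and 3.70 ± 1.05 per kb, and Scn11a had 1.78 ± 0.483, 1.81 ± 0.888 and 1.31 ± 0.188. The 9 of 10 markers of sensory ganglia in the table summed to 1739 to 1929 normalized counts per mouse, most of it Tac1, which brain neurons also express. Their part in the levels of Scn9a, Scn10a and Scn11a was not tested.

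L-type calcium channel pores were led by Cacna1c, the Cav1.2 channel of heart and neuronal dendrites, with 366 ± 63.6 per kb in WT mice, 374 ± 17.7 in HT mice and 376 ± 23.7 in HM mice. Cacna1d, the Cav1.3 channel of pacemaking cells and hair cells, had 308 ± 10.1, 314 ± 18.6 and 310 ± 17.2 per kb. Together these genes held nearly all of the L-type level. Cacna1s, the skeletal muscle channel, had 7.47 ± 1.1, 6.94 ± 2.56 and 7.08 ± 3.68 per kb, and 1309 of its exon bases overlap an antisense gene, Gm37759. Cacna1f, the channel of photoreceptor and bipolar cell terminals, was the lowest member in WT mice, with 1.72 ± 0.826 per kb, and had 2.84 ± 3.27 in HT mice and 3.5 ± 1.33 in HM mice. Its normalized counts of 2.92 to 46.4 per mouse rest on about as many reads.

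The presynaptic Cav2 pores were more even. Cacna1a, the P/Q-type channel of fast synapses and Purkinje cells, had 916 ± 36.9 per kb in WT mice, 918 ± 33.1 in HT mice and 941 ± 52.1 in HM mice. Cacna1e, the R-type channel, had 867 ± 99.0, 951 ± 48.0 and 958 ± 49.1 per kb. Cacna1b, the N-type channel, had 573 ± 57.1, 610 ± 19.4 and 618 ± 18.2 per kb. Of the summed per-kb level of this class in WT, Cacna1a held 39.0%, Cacna1e 36.7% and Cacna1b 24.3%.

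T-type pores open at low voltage and support burst firing, above all in the thalamus. Cacna1g had 726 ± 42.7 per kb in WT mice, 687 ± 61.0 in HT mice and 715 ± 23.9 in HM mice. Cacna1h had 497 ± 34.1, 481 ± 31.3 and 466 ± 49.8 per kb, and Cacna1i had 475 ± 39.5, 496 ± 26.3 and 514 ± 12.3 per kb. The WT ranges of Cacna1h and Cacna1i overlapped, whereas Cacna1g lay above both.

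Auxiliary genes reached higher levels than any pore. Scn2b, the disulfide-linked beta2 subunit, had 2027 ± 78.0 per kb in WT mice, 2095 ± 58.2 in HT mice and 2023 ± 88.7 in HM mice, and Scn4b, the beta4 subunit tied to resurgent current, had 1972 ± 132, 2091 ± 61.7 and 1962 ± 75. Scn3b, the beta3 subunit, had 1082 ± 68.9, 1115 ± 41.4 and 1115 ± 38.4 per kb. The WT ranges of Scn2b and Scn4b overlapped, whereas Scn3b lay below both.

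Among alpha2delta genes, Cacna2d1, whose product binds gabapentin, had 910 ± 49.0 per kb in WT mice, 946 ± 43.1 in HT mice and 979 ± 41.4 in HM mice. Cacna2d3, the form that does not bind gabapentin strongly, had 844 ± 26.5, 885 ± 39.3 and 882 ± 47.4 per kb, and Cacna2d2, the form of the ducky mouse with cerebellar ataxia, had 487 ± 42.6, 525 ± 49.5 and 519 ± 7.79. Cacna2d4, known from photoreceptors, was far below them with 19.0 ± 8.86 per kb in WT mice, 30.8 ± 6.76 in HT mice and 20.5 ± 2.68 in HM mice. Cav beta subunits were led by Cacnb3, with 2702 ± 95.2, 2687 ± 67.1 and 2688 ± 35.3 per kb, followed by Cacnb1, the beta subunit also found in skeletal muscle, with 1272 ± 26.3, 1312 ± 66.3 and 1312 ± 52.7. Cacnb4, the gene of the lethargic mouse, had 954 ± 56.0, 1004 ± 57.7 and 1036 ± 113 per kb, and 16.0% of its exon bases overlap the antisense gene A430018G15Rik. Cacnb2, the main beta subunit of heart, had 503 ± 34.0, 542 ± 14.4 and 516 ± 17.3 per kb.

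**Figure D2:**
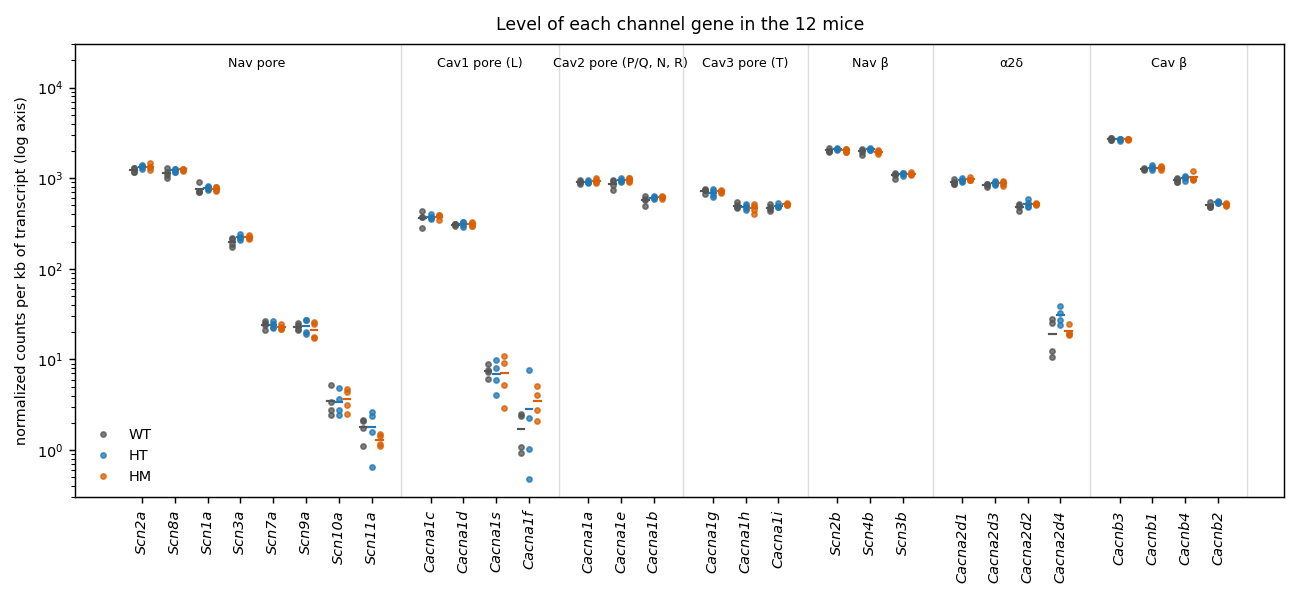
Normalized counts per kb of the longest coding transcript (log axis) of 29 channel genes, grouped by subunit class and ordered by their WT mean, with a point for each mouse and a bar for the mean of each genotype. Of these, Cacnb3 is highest at 2702 per kb in WT and Cacna1f lowest at 1.72, and the 3 genotypes lie on top of each other for nearly every gene.

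In the order of WT levels, gaps between neighbours that exceeded the spread of the mice lay below Cacnb3, Scn4b, Cacna1g, Cacna1d, Scn3a, Cacna2d4, Cacna1s and Scn10a. Between these breaks, the WT ranges of neighbours overlapped, so that the order from Cacnb1 to Cacna1g, or from Cacna1b to Cacna1d, is not fixed at each step. The order within a class also depends on the length used: with the median length of the coding transcripts instead of the longest, Scn2a held 16.5% of the sodium channel pores and Cacna1g 8.28% of the T-type pores, against 35.8% and 42.8%. Levels were steady between mice of one genotype. Members that averaged 1000 or more normalized counts had a median coefficient of variation of 5.87%, and all genes at this level had 4.82%.

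No channel gene differed between genotypes after correction for all genes tested. In limma with BH adjustment, 0 of 31 members in HT against WT, 0 of 30 in HM against WT and 0 of 30 in HM against HT had an adjusted p under 0.05, beside 0.00555%, 0.0111% and 0.00556% of all genes. Scn11a was left out of both HM comparisons because its mean was under 10. At an unadjusted p under 0.05, 3 members were higher and 0 lower in HT than in WT mice (3.16% and 3.26% of all genes, 6.42% in either direction). In HM mice, 5 members were higher and 0 lower than in WT (3.93% and 3.05% of all genes, 6.99% in either direction), and 0 members were higher and 2 lower than in HT (2.11% and 1.62%, 3.74% in either direction). With WT replicate 1 left out, these counts were 3 for HT and 2 for HM against WT. Of all 18004 genes, 478 were then higher and 613 lower in HT, and 633 higher and 568 lower in HM. In no comparison did a member's genotypes separate without overlap, where 1.82% of all genes were separately higher and 1.91% separately lower in HT than in WT, 2.41% and 1.81% in HM than in WT, and 1.24% and 1.14% in HM than in HT. Exact two-sided permutation tests on single members, which can reach 0.0286 with 4 mice against 4, gave 0.0571 as the smallest p. In bulk brain RNA, fewer cells of a type and less RNA per cell cannot be told apart.

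Precision was enough to bound most of these differences. The 95% interval of the fold change lay within 0.32 of 0 on the log2 scale for 25 of 31 members in HT against WT, 23 of 30 in HM against WT and 25 of 30 in HM against HT, where 60.5%, 59.6% and 62.5% of all genes met this limit. By role in HM against WT, these were 12 of 18 pores and 11 of 12 auxiliary genes. Scn1a, the Dravet gene, was 3.16% higher in HT than in WT mice, with a 95% interval from -7.16% to 14.6%, and 0.981% higher in HM mice, from -9.29% to 12.4%. For Scn8a the intervals ran from -2.97% to 18.2% in HT and from -0.215% to 20.5% in HM mice. These values moved with single WT mice, those of Scn8a in both directions. Scn1a was 9.40% higher in HT (2.03% to 17.3%) and 7.09% higher in HM mice (-0.134% to 14.8%) without WT replicate 2. Scn8a was then 11.9% higher in HT (2.74% to 21.8%) and 14.6% higher in HM mice (6.07% to 23.7%). On the log2 scale these were 0.13 and 0.099 for Scn1a and 0.16 and 0.20 for Scn8a, and all but that of Scn1a in HM mice had an unadjusted p under 0.05. With WT replicate 1 left out instead, Scn8a was 2.69% and 5.17% higher and Scn1a 0.835% higher and -1.30% from WT. Members outside the limit in HM against WT were mainly low ones such as Scn10a, Cacna1f, Cacna1s and Cacna2d4, whose intervals were wide.

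**Figure D3:**
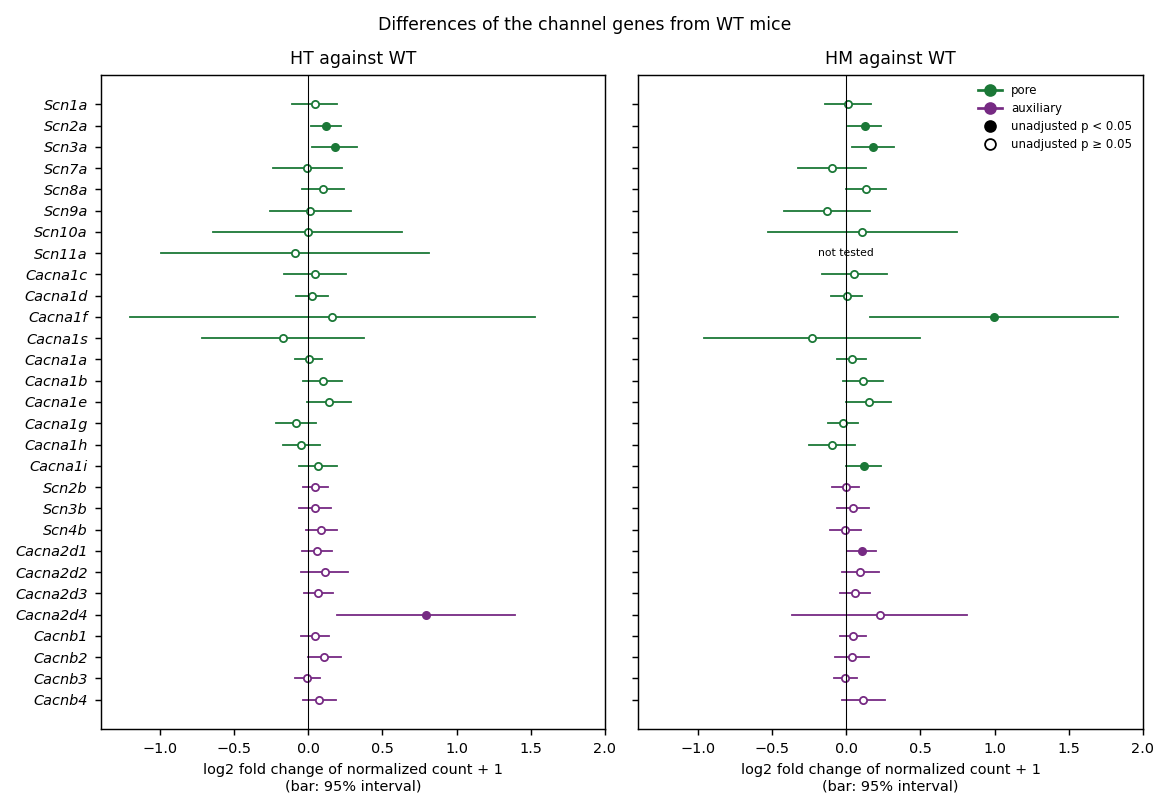
Log2 fold change (point) and 95% interval (bar) of 29 channel genes in HT against WT and HM against WT, with pores in green and auxiliary subunits in purple and filled points for an unadjusted p under 0.05 in limma. Filled points are 3 on the left and 5 on the right, all above 0, and the widest bars belong to the low genes Cacna1f, Scn11a, Cacna1s and Scn10a.

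Scn2a and Scn3a, the head-to-head neighbours on chromosome 2, had an unadjusted p under 0.05 in both mutant genotypes. Scn2a had 10545, 11453, 11495 and 10389 normalized counts in the WT mice (replicates 1 to 4), 12457, 12170, 11288 and 11781 in HT and 11140, 11956, 11776 and 13039 in HM mice. HT replicate 3 and HM replicate 1 lay inside the WT range and the other mutant mice above it. On the log2 scale Scn2a differed from WT by 0.12 ± 0.046 (SE) in HT mice (limma p = 0.021, BH-adjusted p = 0.77, exact permutation p = 0.0857) and by 0.13 ± 0.051 in HM mice (limma p = 0.0293, BH-adjusted p = 0.673, exact permutation p = 0.114). Without WT replicate 1 the differences were 0.10 and 0.11, and only that of HT mice kept an unadjusted p under 0.05.

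Scn3a had 1673, 2069, 2026 and 1818 normalized counts in WT mice, 2125, 2343, 2004 and 2099 in HT mice and 2118, 2162, 2262 and 2037 in HM mice. All but 1 mouse of each mutant genotype lay above the WT range, whose 2 low values were those of replicates 1 and 4. The log2 difference was 0.18 ± 0.070 in HT (limma p = 0.0234, BH-adjusted p = 0.77, exact permutation p = 0.0857) and 0.18 ± 0.066 in HM mice (limma p = 0.0165, BH-adjusted p = 0.664, exact permutation p = 0.0571). Without WT replicate 1 it was 0.12 in both, and only that of HM mice kept an unadjusted p under 0.05. Of the remaining genes of this cluster, Scn1a, Scn9a and Scn7a had log2 differences of 0.045, 0.013 and -0.0059 in HT and of 0.014, -0.13 and -0.094 in HM mice, none with an unadjusted p under 0.05.

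Cacna1i and Cacna2d1 were higher than in WT at an unadjusted p under 0.05 in HM mice. Cacna1i had 4202, 5126, 4520 and 4717 normalized counts in WT mice, 5233, 4776, 4754 and 4657 in HT mice and 5190, 4901, 5015 and 4990 in HM mice. WT replicate 2 lay among the HM mice and WT replicate 1 lowest of all. The difference in HM was 0.12 ± 0.054 on the log2 scale (limma p = 0.0478, BH-adjusted p = 0.712, exact permutation p = 0.114). Without WT replicate 1 it was 0.071, with an unadjusted p above 0.05. Cacna2d1, the most abundant alpha2delta gene, had 6489, 7257, 6826 and 6490 normalized counts in WT mice, 7138, 7424, 6678 and 6899 in HT mice and 7054, 7180, 7144 and 7732 in HM mice. All HM mice lay above 3 of the WT mice, and WT replicate 2 above 3 of the HM mice. Its log2 difference was 0.11 ± 0.046 in HM (limma p = 0.0376, BH-adjusted p = 0.693, exact permutation p = 0.114) and 0.057 ± 0.047 in HT mice (BH-adjusted p = 0.882). The HM difference was 0.086 without WT replicate 1, with an unadjusted p above 0.05.

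The 2 photoreceptor genes, Cacna1f and Cacna2d4, had the largest differences and the fewest counts of the members with an unadjusted p under 0.05. Cacna1f had 15.1, 5.66, 14.5 and 6.57 normalized counts in WT mice, 46.4, 2.92, 6.23 and 13.7 in HT mice and 17.0, 24.6, 12.6 and 30.9 in HM mice. HM replicate 3 fell within the WT range, and the HT mice spanned the range of all others. The difference in HM was 1.00 ± 0.39 on the log2(normalized count + 1) scale (limma p = 0.023, BH-adjusted p = 0.67, exact permutation p = 0.114), which understates folds of genes this low.

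Cacna2d4 had 61.3, 145, 71.1 and 163 normalized counts in WT mice, 190, 228, 159 and 138 in HT mice and 110, 114, 142 and 109 in HM mice. Of the 4 HT mice, 2 exceeded every WT mouse, and the HM mice all lay between the low and the high pair of WT mice. HT mice were higher than WT by 0.79 ± 0.28 on the log2 scale (limma p = 0.0133, BH-adjusted p = 0.768, exact permutation p = 0.143), and by 0.56 without WT replicate 1. HM mice were lower than HT by -0.57 ± 0.15 (limma p = 0.00281, BH-adjusted p = 0.959, exact permutation p = 0.0571), the smallest limma p of any member. They differed from WT by 0.22 ± 0.27 (limma, adjusted p = 0.892). Markers of the pineal gland and photoreceptors (5 of 9 in the table, Pde6b under 10 in the mean and none at 0) summed to 109 to 140 normalized counts in WT mice, 87.9 to 144 in HT mice and 95.8 to 155 in HM mice, and 0 of them had an unadjusted p under 0.05. Their part in the values of Cacna1f and Cacna2d4 was not tested.

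Scn4b separated the 2 mutant genotypes at an unadjusted p under 0.05. It had 10375, 10312, 8985 and 9617 normalized counts in WT mice, 10367, 10862, 10253 and 10181 in HT mice and 9881, 9301, 10200 and 9725 in HM mice. HM replicate 3 lay above HT replicate 4, and the WT mice ran from below every HM mouse to within the HT range. The log2 difference of HM from HT was -0.092 ± 0.036 (limma p = 0.024, BH-adjusted p = 1.00, exact permutation p = 0.0571). It lost its unadjusted p under 0.05 without HM replicate 2 or HT replicate 2, with differences of -0.068 and -0.071. In the same comparison 5 of 6 olfactory bulb and 4 of 5 erythrocyte markers were higher in HM mice and 3 of 5 microglial markers lower at an unadjusted p under 0.05. Their part in the values of Scn4b and Cacna2d4 was not tested.

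**Figure D4:**
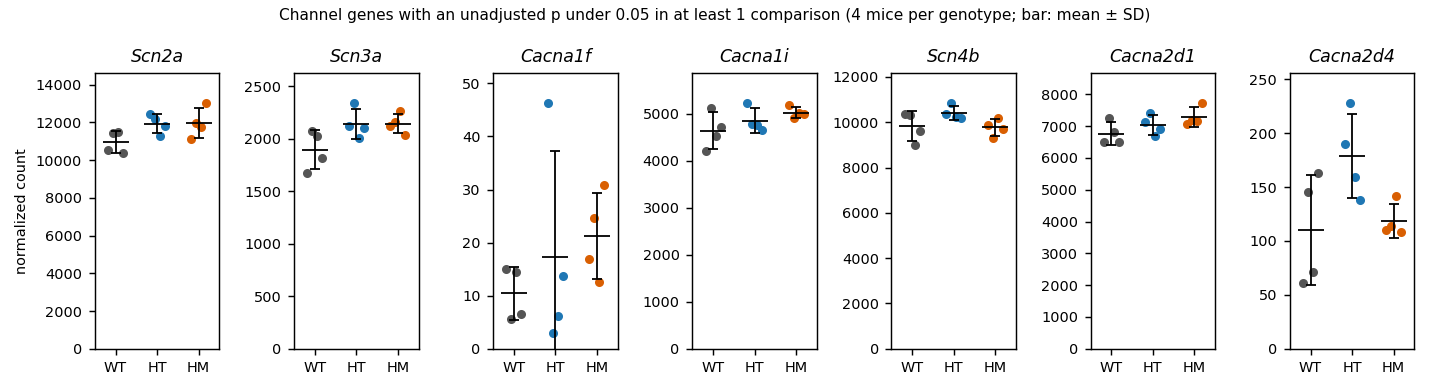
Normalized counts in each mouse (points) with the mean ± SD of 4 mice (bars) for the 7 channel genes with an unadjusted p under 0.05 in at least 1 comparison, each panel on its own axis from 0. The genotypes overlap in every panel, and the spread is widest for Cacna1f (2.92 to 46.4 in HT mice) and for Cacna2d4 in WT mice (61.3 to 163).

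The most abundant members of the remaining classes showed little difference between genotypes. Cacna1c had 3697, 5724, 4899 and 4955 normalized counts in WT mice, 4690, 5236, 4817 and 4923 in HT mice and 5161, 4983, 4503 and 5166 in HM mice, with WT replicate 1 lowest and WT replicate 2 highest of the 12. Its log2 difference from WT was 0.045 ± 0.098 in HT (limma, adjusted p = 0.962) and 0.055 ± 0.10 in HM mice (limma, adjusted p = 0.938), and it turned to -0.076 and -0.067 without WT replicate 1. Cacna1a had 6917, 7632, 7232 and 7273 normalized counts in WT mice, 6956, 7288, 7599 and 7254 in HT mice and 7625, 7942, 7002 and 7255 in HM mice. The groups covered nearly the same range, and the difference was 0.0023 ± 0.042 in HT (limma, adjusted p = 0.998) and 0.037 ± 0.046 in HM mice (limma, adjusted p = 0.896). The HT value turned to -0.021 without WT replicate 1.

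Cacna1g, the leading T-type gene, had 6341, 6161, 5562 and 6287 normalized counts in WT mice, 5256, 5409, 6028 and 6339 in HT mice and 5947, 6270, 5982 and 5790 in HM mice. HT replicates 1 and 2 were the lowest of the 12, and the difference from WT was -0.083 ± 0.062 in HT (limma, adjusted p = 0.867) and -0.020 ± 0.047 in HM mice (limma, adjusted p = 0.951). Cacnb3 had 7676, 7131, 7209 and 7536 normalized counts in WT mice, 7081, 7361, 7484 and 7454 in HT mice and 7414, 7412, 7209 and 7366 in HM mice. Its range was narrow in all genotypes, and the difference was -0.0081 ± 0.039 in HT (limma, adjusted p = 0.986) and -0.0068 ± 0.036 in HM mice (limma, adjusted p = 0.982), with 0.011 and 0.012 without WT replicate 1.

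As a group, the members had small differences that were more often above 0 than below. In HT against WT, 23 of 31 members were above 0 (50.0% of all genes) with a median log2 difference of 0.045, and in HM against WT, 21 of 30 (49.8% of all genes) with a median of 0.045. The median over all genes tested was 0.000051 and -0.00029. Pores had a median of 0.040 in HT and 0.046 in HM mice, and auxiliary genes 0.062 and 0.045. By class, the alpha2delta genes had 0.088 and 0.10, the Cav2 pores 0.097 and 0.11, the Cav beta genes 0.058 and 0.040, and the T-type pores -0.046 and -0.020. Sodium channel pores had 0.040 and 0.063, L-type pores 0.034 and 0.030, and sodium channel beta genes 0.046 and -0.0041. Between HM and HT mice, 16 of 30 members were above 0 (49.5% of all genes), with a median of 0.0011.

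Over all genes, the difference from WT went with transcript length. In HT against WT, the median log2 difference went from -0.037 for genes with transcripts of up to 2000 bases, 36.2% of them above 0, to 0.049 for those over 8000 bases, 74.1% of them above 0. In HM against WT it went from -0.041 to 0.061, with 35.8% and 76.5% above 0. Of the channel genes, 14 have transcripts over 8000 bases, and their medians were 0.056 in HT and 0.085 in HM mice. In HT mice the median of the channel genes was 0.055 from 2000 to 4000 bases (4 genes, all genes -0.0028), 0.067 up to 6000 (6 genes, all genes 0.021) and -0.00052 up to 8000 (6 genes, all genes 0.036). In HM mice these medians were 0.040 (4 genes, all genes -0.0048), 0.045 (5 genes, all genes 0.020) and 0.071 (6 genes, all genes 0.036). Each of these bins holds few channel genes, and that of up to 2000 bases, with 1, is left out. Without WT replicate 1, the median of all genes over 8000 bases was 0.014 in HT and 0.023 in HM mice, and the channel genes had medians of 0.021 and 0.013, with 20 of 31 and 17 of 30 above 0. The pores then had 0.000012 and -0.0092. With WT replicate 2 left out, the channel genes had medians of 0.083 in HT and 0.080 in HM mice, with 24 of 31 and 23 of 30 above 0. When each mouse was corrected for transcript length and GC content, the channel medians were 0.027 and 0.030, with 20 of 31 and 16 of 30 above 0, and the pores of HM mice had a median of -0.011.

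**Figure D5:**
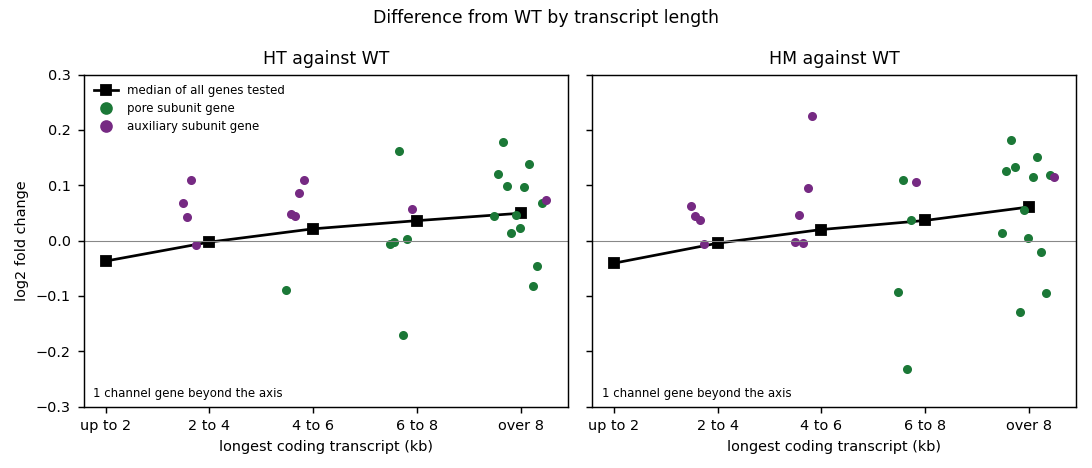
Log2 fold change against WT (vertical axis) by length of the longest coding transcript in kb (horizontal axis), with black squares for the median of all genes tested in each bin and points for 29 single channel genes, spread sideways for display. The squares climb from -0.037 to 0.049 in HT and from -0.041 to 0.061 in HM mice, and the channel genes in the bin over 8 kb lie on both sides of its square.

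Genes whose products anchor or steer these channels were counted in the same way, from lists chosen by function. Of 16 sodium channel partners (ankyrins, adhesion molecules, fibroblast growth factor homologous factors, calmodulins), 0 passed the adjusted threshold in limma in any comparison. At an unadjusted p under 0.05, 1 was higher in HT (3.16% of all genes) and 5 in HM than in WT mice (3.93% of all genes; Ank2, Ank3, Nrcam, Cntn1 and Fgf12), and 0 were lower. The list had 13 of 16 above 0 (50.0% of all genes) and a median log2 difference of 0.037 in HT and 13 of 16 (49.8% of all genes) and 0.055 in HM mice. Leaving out single mice was added for the partner lists and for Scn1a and Scn8a after the data were seen. The HM count became 2 without WT replicate 1 or HM replicate 2 (3.52% and 3.04% of all genes). It became 4 without HM replicate 3 (4.14%) and 1 without WT or HM replicate 4 (3.49% and 3.28%). The HT count became 2 without WT replicate 2 (3.65%), 3 without WT replicate 3 (3.25%) and 4 without HT replicate 3 (3.12%). Cntn1, the axonal adhesion molecule contactin-1, had the smallest p in both, at 10833 ± 345 normalized counts in WT mice, 11720 ± 184 in HT mice and 11756 ± 273 in HM mice. Its log2 difference was 0.11 ± 0.036 (limma, adjusted p = 0.768) and 0.12 ± 0.036 (limma, adjusted p = 0.643). In HM against HT, Ank2 had the smallest p of this list, with 0.032 on the log2 scale.

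Of 25 tested calcium channel partners (Cacng genes, active zone scaffolds, RGK proteins and others), 0 passed the adjusted threshold in limma in any comparison. At an unadjusted p under 0.05, 4 were higher in HT than in WT mice (3.16% of all genes; among them Cacng3, Cacng4 and Akap5), 6 in HM than in WT mice (3.93% of all genes; among them Cacng3, Cacng4, Cacng8, Erc1 and Akap5) and 1 in HM than in HT (2.11% of all genes; Cacng8), with 0 lower. Median log2 differences were 0.035 in HT with 18 of 25 above 0 (50.0% of all genes), and 0.056 in HM mice with 17 of 25 above 0 (49.8% of all genes). With WT replicate 1 left out, 4 and 6 had such a p and the medians were 0.023 and 0.027, with 19 and 17 of 25 above 0. The HT count became 2 without HT replicate 1 or 4, and the HM against HT count 2 without HM replicate 2 or 3. Cacng8, which encodes a regulator of AMPA receptors in the hippocampus, had 1569 ± 44.6 normalized counts in WT mice, 1606 ± 98.8 in HT mice and 1791 ± 33.9 in HM mice. It differed by 0.19 ± 0.043 between HM and WT (limma, adjusted p = 0.553) and by 0.16 ± 0.048 between HM and HT (limma, adjusted p = 1.00). Cacng3 had the smallest p in HT against WT, with 2374 ± 133 normalized counts in the WT mice and 2613 ± 107 in HT mice, a log2 difference of 0.14 ± 0.050 (limma, adjusted p = 0.768).

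Of 7 tested relatives of these channels, 0 passed the adjusted threshold in limma in any comparison. At an unadjusted p under 0.05, 1 (Nalcn) was higher in HT than in WT mice (3.16% of all genes) and 0 lower. In HM against WT and HM against HT there were 0 (6.99% and 3.74% of all genes in either direction). The HT count became 0 without WT replicate 4 (2.97%). In HM against WT, 1 was lower without WT or HM replicate 1 (568 and 481 of 18004 genes), and 1 higher without WT replicate 3 (4.08%). Nalcn, the sodium leak channel that sets resting excitability, had the smallest p in HT against WT, with 3784 ± 141 normalized counts in the WT mice and 4114 ± 154 in HT mice. The log2 difference was 0.12 ± 0.043 (limma, adjusted p = 0.768), and it was -0.043 between HM and HT mice. In HM against WT, the smallest p was that of Tpcn2, an endolysosomal channel, with a log2 difference of -0.22 (limma, adjusted p = 0.743).

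Markers of brain regions and other cells were read in the same libraries. Olfactory bulb markers summed to 563 to 870 normalized counts in WT mice, 522 to 656 in HT mice and 828 to 1381 in HM mice, with 4 of 6 higher at an unadjusted p under 0.05 in HM than in WT. The 8 neuron markers summed to 198208 to 213034 in WT mice, 202651 to 217756 in HT mice and 210208 to 213894 in HM mice, with 1 of 8 higher in HM. Purkinje cell markers, which matter for Cacna1a and Cacna1g, summed to 29180 to 31304 in WT mice, 30379 to 31161 in HT mice and 30078 to 31660 in HM mice. Most of this sum was Itpr1 (18746 to 21001 per mouse), so it mainly follows that gene. Pcp2 had only 5.54 to 26.4 and Ppp1r17 14.8 to 28.3 normalized counts per mouse. Interneuron markers, which matter for Scn1a, summed to 32636 to 34650, 33885 to 35845 and 32627 to 36206. Erythrocyte markers had 5 of 5 lower in HT than in WT (6495 to 8717 against 7780 to 21984), and choroid plexus markers 3 of 7 lower in HM (10025 to 18199 against 15454 to 20053). Skeletal muscle markers (7 of 10 in the table, led in the brain by the interneuron gene Pvalb) summed to 1349 to 1925, with 1 of 6 lower in each mutant genotype than in WT. Of the other lists, an unadjusted p under 0.05 against WT was found in HT mice for 1 olfactory bulb marker and 1 meningeal marker (lower), 1 Purkinje cell, 1 astrocyte and 1 endothelial marker (higher) and 4 interneuron markers (2 higher, 2 lower). In HM mice it was found for 1 microglial and 1 interneuron marker (lower) and 2 endothelial markers (higher). Cerebellar granule cells, heart muscle, sensory ganglia, pituitary, oligodendrocytes and their precursors had 0 such markers against WT. Between HM and HT mice, 5 of 6 olfactory bulb and 4 of 5 erythrocyte markers were higher in HM, and 3 of 5 microglial and 1 of 6 skeletal muscle markers lower, with 0 in the other lists. Whether these shifts bear on the channel genes was not tested.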

How the data were processed

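Whole-brain RNA of 12 mice was measured. The authors quantified reads with Salmon 1.1.0 on GRCm38 with GC correction, summed transcripts to genes with tximport and normalized with DESeq2 1.30.1. The deposited values are a signal of size-factor-scaled estimated counts. The submitters' processing notes also name R 4.1.1. Dividing by size factors leaves differences in transcript length bias between libraries. The values step by 0.924 to 1.12 per read, but at most 24.2% of low values were whole (within 0.02 reads), so no count model was fitted and depth before scaling is not given. Gene symbols, positions and lengths came from GENCODE M21 (19758 of 19775 identifiers found).

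Genotypes were compared with limma 3.58.1 in R 4.3.3 (variance prior with a trend) on log2(value + 1), mean at least 10 over 8 mice, two-sided, BH over all genes tested, threshold 0.05. Single genes were also compared by exact permutation. The tool was tested on simulated data. Nothing says that mice came from separate litters, so p-values measure the spread between these mice. Members and lists were chosen with earlier results of these data known. Members with an unadjusted p under 0.05, or genotypes without overlap, and the most abundant member of each class are given in full. Values of some single genes are not reported here, but all 31 members are in the counts and medians. Partner genes are named by the smallest p in each list and comparison, and the other genes behind counts of up to 6 were named after their values were seen. Alternatives were pseudocounts of 0.1 and 5, no filter, at least 10 in every mouse, 1 fit of 12 mice, a replicate block, a block on the first 3 digits of the number in each column name (271, 274, 276 or 278, whose meaning the labels do not state), a prior without a trend, equal sums, quantile normalization, loess on length and GC (span 0.4), other transcript lengths for levels and leaving out each mouse. Python 3.11.15 with numpy 2.4.6 and pandas 2.3.3 was used. 18 marker lists were read.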

Additional observations from a re-analysis of the deposited data

Results flagged for a closer look

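Of 87 sets of 4 mice (29 members in 3 genotypes), 2 had a mouse farther from the other 3 than Dixon's test allows at the 95% level, where chance gives about 1 in 20. Scn1a stood at 7550 normalized counts in WT replicate 2 and at 5911 to 6082 in the other WT mice. Cacnb4 stood at 9913 in HM replicate 3 against 7918 to 8160 in the other HM mice.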

How the results depend on the processing

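With 4 mice per genotype, differences of a few percent between mice set the limit. No member passed the adjusted threshold under any alternative. Replicate numbers did not pair the mice: correlations of same-numbered mice ran from -0.066 to 0.087, and most mice matched another number better. With a replicate block, 4, 6 and 1 members had an unadjusted p under 0.05 in HT against WT, HM against WT and HM against HT, against 3, 5 and 2 without it. These counts became 1 in HT against WT with a block on the number in the column names (the column-number block) and 0 with a variance prior without a trend. In HM against WT they became 2 with the length and GC correction, 3 with quantile normalization, 3 with equal sums and 2 without a trend, and in HM against HT 1 in one fit of all 12 mice and 1 without a trend. Leaving out single mice gave 1 to 8 (HT against WT; 8 without WT replicate 2 and 5 without WT or HT replicate 3), 1 to 7 (HM against WT; 7 without WT replicate 2) and 1 to 4 (HM against HT; 4 without HT replicate 1). HT replicate 2, HM replicates 2 and 4 and WT replicate 4 each left a count of 1 when left out. Of all 18004 genes, 657 were higher and 589 lower in HT against WT without WT replicate 2, and 828 and 631 in HM against WT. For HT against WT these were 586 and 572 without WT replicate 3 and 561 and 584 without HT replicate 3. In HM against HT without HT replicate 1 they were 378 and 325 of 17986. Shares of all genes under the other settings are not given, so those member counts have no such measure beside them.

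The median log2 difference of the pores in HM against WT became 0.11 with the column-number block and -0.011 with the length and GC correction, and ran from -0.0092 (without WT replicate 1) to 0.11 (without WT replicate 2) with single mice left out. In HM against HT the column-number block gave 0.041 for the pores and -0.055 for the auxiliary genes, whose range without single mice was -0.035 (without HT replicate 2) to 0.0063. Directions turned for 3 leading genes with differences near 0. In HM against WT, Cacna1a became -0.028 (column-number block) and -0.0069 (length and GC), and Cacna1c -0.015 (length and GC) with -0.067 to 0.14 without single mice, and Cacnb3 ran from -0.024 to 0.012. In HT against WT, Cacna1a became -0.020 (column-number block), -0.030 (length and GC), -0.023 (quantile) and -0.0075 (equal sums), with -0.021 to 0.026 without single mice. Cacna1c became -0.093 (column-number block) and -0.015 (length and GC), with -0.076 to 0.13, and Cacnb3 0.019 and 0.0076, with -0.025 to 0.011. Slc6a20a in HT against WT had an adjusted p of 0.145 in limma without a trend. The cause of these shifts was not tested.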
